A study of Mus musculus with 4 samples.

Results

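Clps, Pla2g1b, Cel and Pnliprp1 are 4 genes of fat digestion, taken by name from the 17712 genes of the expression matrix and followed through the 10 clusters of gastric epithelial cells that the authors deposited and through 4 libraries. Clps encodes colipase, the cofactor that holds pancreatic lipase on a bile salt-coated fat droplet. Pla2g1b encodes the secreted phospholipase A2 of pancreatic juice, Cel encodes the bile salt-dependent carboxyl ester lipase, which splits cholesteryl and retinyl esters, and Pnliprp1 encodes pancreatic lipase-related protein 1, a relative of pancreatic lipase with little known activity on triglyceride. All 4 genes were measured, and they fell into a pair with most of its transcripts in chief-like cells (Clps and Pla2g1b) and a pair with most of its transcripts in endocrine-like cells (Cel and Pnliprp1). Each pair had a partial exception: endocrine-like cells of cluster 6 carried Clps without matching Pla2g1b, and chief-like cells carried a low level of Pnliprp1 without matching Cel.

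The cells came from stomach epithelium of female Rosa26iH2b-GFP mice aged 14 weeks, in which a constitutive Tet-on 3G transactivator drives histone H2b-GFP from a TRE3G promoter. Every mouse received doxycycline for 4 weeks and was then chased without it for 6 weeks, so that cells that had divided little retained GFP. Cells were sorted for the epithelial surface protein Epcam (Epcam+ 1 and Epcam+ 2) or, among Epcam-positive cells, for retained GFP (GFP+ 1 and GFP+ 2). The methods do not say that GFP-positive cells were left out of the Epcam+ sort. Sorted cells of 2 mice were combined per load, and 3′ single-cell libraries were made. Nothing in the labels says that the libraries of a sort came from separate mice, so p-values rest on how far these libraries lie apart and may reflect technical spread alone.

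The libraries held 1642, 1896, 467 and 444 cells (Epcam+ 1, Epcam+ 2, GFP+ 1 and GFP+ 2), with 73876885, 79455225, 35571141 and 47222033 unique molecular identifiers (UMIs, each standing for 1 captured RNA molecule). GFP+ 2 stood apart, with a median of 104840 UMIs per cell against 31735 to 45119 in the other libraries, and with 57.9% of its cells in cluster 1. Cluster names follow marker genes: clusters 1 and 5 were chief-like, 0 neck-like, 2 pit-like, 3 and 4 isthmus-like (dividing), 6 and 7 endocrine-like, 8 parietal-like and 9 tuft-like. The leading genes of cluster 5 included Cblif, a chief cell gene, but also Aqp5, on the neck list, and 37 of its 278 cells were called doublets. Levels are given as CPM, the UMIs of a gene per 1000000 UMIs of a cluster in 1 library, and only for library and cluster pairs of at least 20 cells. A 3′ protocol counts each molecule once, so CPM of different genes were compared without a length correction. The 4 genes took part in the clustering, and Clps and Pla2g1b were among the 10 leading genes of cluster 1 and Cel among those of cluster 6, so their levels across clusters are a description with no test.

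In the pancreas, acinar cells make all of these proteins and release them into the duodenum, where colipase, lipases, phospholipase and bile salts act together on dietary fat. Transcription of acinar digestive genes depends on PTF1, a complex of the basic helix-loop-helix protein Ptf1a, an E protein and Rbpjl or its relative Rbpj, which binds an E-box next to a TC-box. Gastric chief cells sit at the base of the corpus gland and are known for pepsinogen (Pgc), gastric intrinsic factor (Cblif) and the acidic chitinase Chia1. The endocrine cells of the same glands include histamine-making enterochromaffin-like cells, marked by histidine decarboxylase (Hdc) and the monoamine transporter Slc18a2, and ghrelin cells, marked by Ghrl.

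Because Cel and Pnliprp1 had levels that followed Ptf1a and Rbpjl across the clusters, the 250 bases before their RefSeq start sites (GRCm38.p6) are shown, with that of Pla2g1b, a gene that did not follow them. Capitals mark the E-box (CANNTG) and the TC-box (TGGGAA), searched on both strands, and E-boxes of the form CACCTG are a subset of the first. A promoter entry was held for 3 of the 4 genes. The windows are chr2:28563404-28563653 on the minus strand (Cel), chr19:58728637-58728886 on the plus strand (Pnliprp1) and chr5:115465892-115466141 on the plus strand (Pla2g1b), each written 5′ to 3′. The RefSeq start of Pla2g1b lies upstream of its GENCODE start.
Cel: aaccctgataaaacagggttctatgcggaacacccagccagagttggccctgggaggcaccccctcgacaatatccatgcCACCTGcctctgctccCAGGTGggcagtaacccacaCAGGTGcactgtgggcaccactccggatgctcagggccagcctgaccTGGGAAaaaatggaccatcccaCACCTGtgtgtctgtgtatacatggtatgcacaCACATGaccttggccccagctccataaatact
Pnliprp1: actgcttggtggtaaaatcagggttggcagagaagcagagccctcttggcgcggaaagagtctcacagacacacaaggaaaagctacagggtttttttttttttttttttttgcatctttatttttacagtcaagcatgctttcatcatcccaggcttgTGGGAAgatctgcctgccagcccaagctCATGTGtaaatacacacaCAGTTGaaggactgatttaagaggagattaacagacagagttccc
Pla2g1b: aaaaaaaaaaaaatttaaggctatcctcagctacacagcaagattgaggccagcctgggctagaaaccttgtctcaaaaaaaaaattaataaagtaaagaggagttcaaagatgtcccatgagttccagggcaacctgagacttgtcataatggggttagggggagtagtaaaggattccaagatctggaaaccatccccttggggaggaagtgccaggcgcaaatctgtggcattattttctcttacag
The Cel window held 5 E-boxes, 4 of them CACCTG, and 1 TC-box that began 87 bases before the start and lay 16 bases from the nearest E-box. The Pnliprp1 window held 2 E-boxes and 1 TC-box, which began 91 bases before the start and lay 22 bases from an E-box. The Pla2g1b window held 0 matches to either motif. Of 32536 promoter windows of the same length, 66.2% held an E-box, 21.6% a TC-box, 17.3% CACCTG and 5.73% an E-box and a TC-box no more than 30 bases apart. A match describes the letters only and is not a bound site.

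On the same build (GENCODE M21 annotation), Clps (ENSMUSG00000024225) lies at chr17:28558149-28560766 on the minus strand with 3 exons and Pla2g1b (ENSMUSG00000029522) at chr5:115466262-115474722 on the plus strand with 4. Cel (ENSMUSG00000026818) lies at chr2:28555795-28563403 on the minus strand with 11 exons, and the antisense gene Gm13381 overlaps it. Gm13381 had only 17 UMIs in the whole matrix, against 8979 of Cel. Pnliprp1 (ENSMUSG00000042179) lies at chr19:58728887-58744169 on the plus strand with 13 exons. Pnliprp2, which encodes a galactolipase of the same family, follows 15549 bases further on with 0 annotated genes between them. The longest stretch of identical transcript sequence that Pnliprp1 shared was 23 bases with pancreatic lipase (Pnlip) and 20 bases with Pnliprp2.

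Clps was the more abundant member of the chief-like pair. In cluster 1 its level was 369289 and 378824 CPM in Epcam+ 1 and Epcam+ 2, and 352483 and 363189 CPM in GFP+ 1 and GFP+ 2 (365946 ± 11043, SD, n = 4 libraries). Colipase transcripts thus made up 36.6% ± 1.10 of all cluster 1 UMIs, with little spread between libraries. Cluster 5 followed at 240937 ± 15604 CPM (n = 4), cluster 7 at 136260 ± 49350 (n = 3), cluster 6 at 24379 ± 6127 (n = 4) and neck-like cluster 0 at 9588 ± 3874 (n = 4). Over this order the ranges of neighbouring clusters did not overlap, whereas isthmus-like clusters 3 and 4 (2945 and 2849 CPM, n = 2 each), pit-like cluster 2 (1472 ± 901, n = 4) and parietal-like cluster 8 (800, n = 2) overlapped in sequence. The cluster 7 level rested on few cells: its median cell held 25.5 to 52 Clps UMIs, and 1 cell of Epcam+ 2 held 32933 of that library's 63020. Of the 88 cells of cluster 7, 9 were called doublets, and these levels include them. The levels of cluster 5 also include its 37 doublet calls among 278 cells. Its median cell held 3150.5 to 4682 Clps, 1243.5 to 3248.5 Pla2g1b and 4597 to 7127 Pgc UMIs over the libraries. As summed counts, Pgc was below Clps in that cluster, at 183333 ± 22597 CPM (n = 4).

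Pla2g1b reached 263003 CPM in cluster 1 of Epcam+ 1 and 264678 CPM in that of Epcam+ 2, with 254522 and 264923 CPM in GFP+ 1 and GFP+ 2 (261781 ± 4915, n = 4). It thus varied little between libraries, as Clps did. Cluster 5 held 145243 ± 14430 CPM (n = 4), cluster 7 84101 ± 46786 (n = 3, overlapping cluster 5) and cluster 0 8892 ± 2525 (n = 4). From there the order departed from that of Clps, since parietal-like cells (2341 CPM, n = 2) and endocrine-like cluster 6 (2249 ± 727, n = 4) overlapped. Of all UMIs, 91.7% of Clps and 92.6% of Pla2g1b lay in cluster 1, and a further 6.6% and 5.65% in cluster 5.

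Cel was almost absent from chief-like cells. In cluster 6 its level was 1595 and 1777 CPM in Epcam+ 1 and Epcam+ 2, and 1436.5 and 1588 CPM in GFP+ 1 and GFP+ 2 (1599 ± 139, n = 4). Both GFP+ values lay just below both Epcam+ values, and cluster 7 came next at 190 ± 114 CPM (312, 86.8 and 169 in the 3 libraries of enough cells). In cluster 1 it was 0.800 ± 0.795 CPM and in cluster 5 0.776 ± 0.610 (n = 4 each), and parietal-like cells held 0 UMIs. Cluster 6, with 224 of 4449 cells, held 92.4% of all Cel UMIs.

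Pnliprp1 was highest in cluster 6 too, at 6148 and 5202 CPM in Epcam+ 1 and Epcam+ 2 and 6460 and 5122 CPM in GFP+ 1 and GFP+ 2 (5733 ± 672, n = 4), followed by cluster 7 at 1033 ± 589 (n = 3). Unlike Cel it had a second site in chief-like cells. Cluster 1 held 77.5, 73.7, 99.3 and 83.2 CPM in Epcam+ 1, Epcam+ 2, GFP+ 1 and GFP+ 2 (83.4 ± 11.3), and cluster 5 held 44.8, 80.1, 72.8 and 67.7 CPM (66.3 ± 15.3). These chief-like clusters overlapped each other and lay above the neck-like, pit-like, isthmus-like and parietal-like clusters, which held 7.98 CPM or less on average. Cluster 1, with 896 cells, carried 21.7% of all Pnliprp1 UMIs, against 70.1% in cluster 6. The share of cluster 6 was 72.2%, 74.7% and 74.7% in Epcam+ 1, Epcam+ 2 and GFP+ 1. In GFP+ 2 it was 50.5%, and clusters 1 and 5 together held 49.3%.

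**Figure D1:**
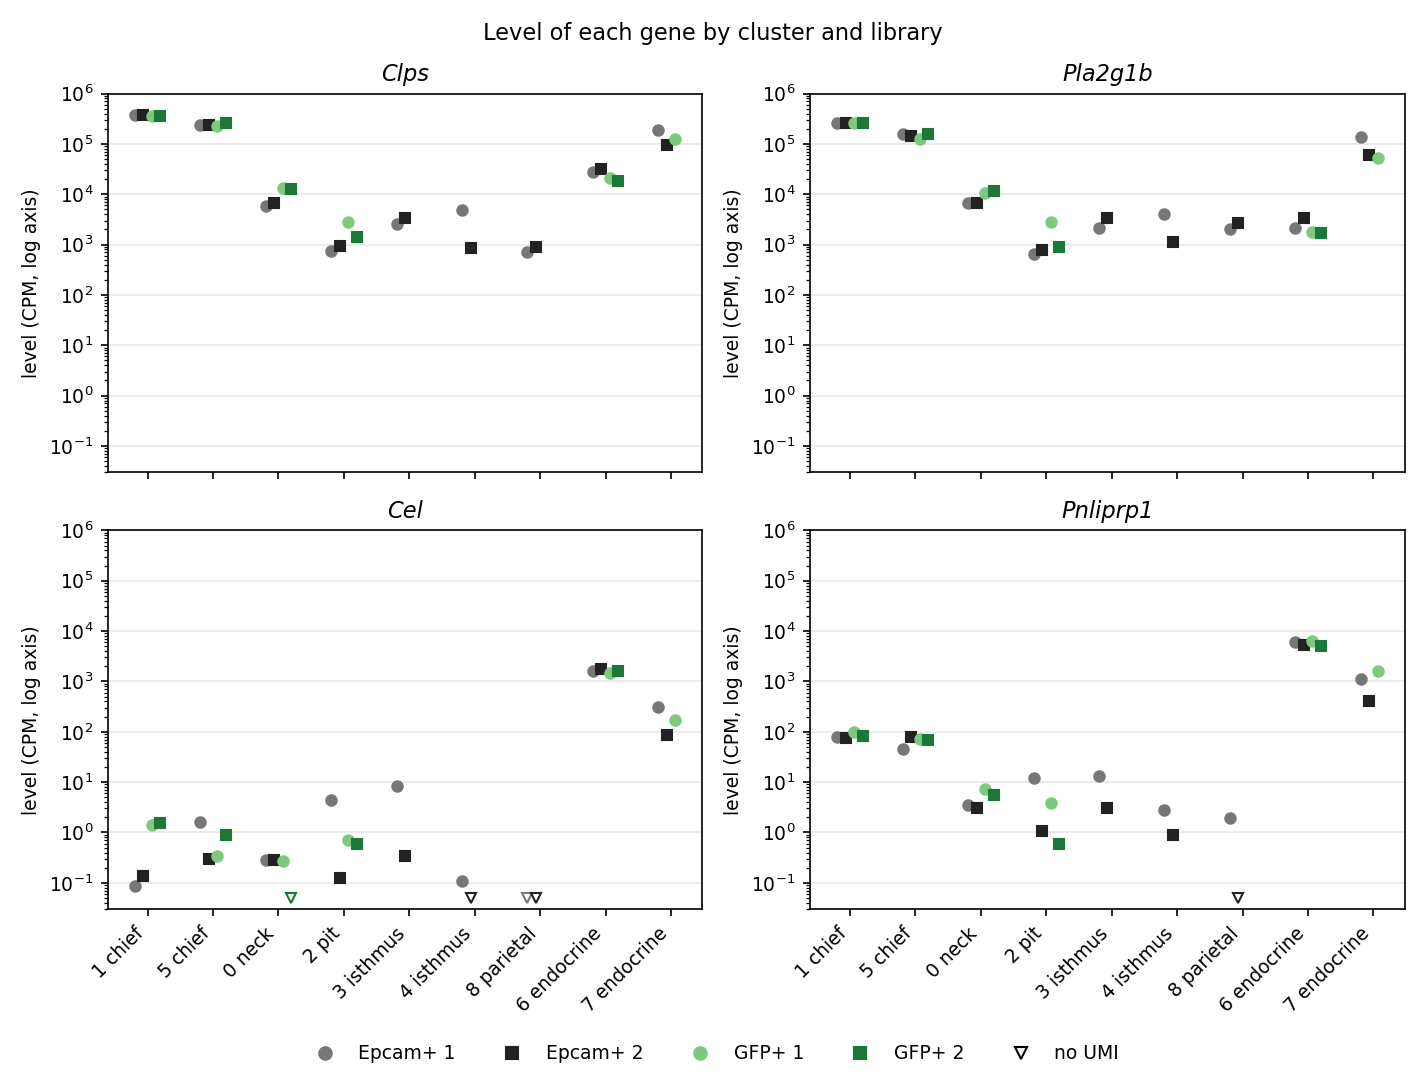
Level of Clps, Pla2g1b, Cel and Pnliprp1 (CPM, log axis) in 9 clusters, 1 point per library with at least 20 cells; grey and black are Epcam+ libraries, greens are GFP+ libraries, and open triangles stand for no UMI. Clps and Pla2g1b peak in chief-like clusters 1 and 5, Cel and Pnliprp1 in endocrine-like cluster 6, and Pnliprp1 also lies near 83.4 CPM in cluster 1.

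Clps and Pla2g1b transcripts were found in nearly every cell of every type. Free RNA from broken cells reaches droplets of every kind in such libraries, so detection alone could not place them. Pit-like cells, which are surface mucous cells and have no known role in making these enzymes, served as the reference in each library. Their median cell held 26, 30.5, 77.5 and 86 Clps UMIs and 21, 24, 49 and 59 Pla2g1b UMIs in Epcam+ 1, Epcam+ 2, GFP+ 1 and GFP+ 2. Isthmus-like and parietal-like cells of the Epcam+ libraries held 25 to 32 Clps UMIs, so for Clps they sat at the pit level. In cluster 4 of Epcam+ 1, 1 cell held 34670 of 44003 Clps UMIs, which shows how a CPM of summed counts can rise above the typical cell.

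Cluster 6 cells held far more Clps than this. Their medians were 334.5 and 317 UMIs in the Epcam+ libraries and 594 and 292.5 in the GFP+ libraries, 3.40 to 12.9 times the pit medians. Between 69.2% and 98.8% of cluster 6 cells exceeded the 90th percentile of pit-like cells of their own library. For Pla2g1b the same cells held medians of 13, 21, 38.5 and 37 UMIs, 0.619 to 0.875 times the pit medians, and only 11.3% to 15.5% exceeded that percentile. The median total of a cluster 6 cell was 19705 UMIs against 37728 for a pit-like cell, and in each library it was lower in cluster 6 than in pit-like cells.

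Counting both genes in each cell gave the same separation. In cluster 6, 51 of 62, 70 of 84, 39 of 52 and 15 of 26 cells (82.3%, 83.3%, 75% and 57.7% in Epcam+ 1, Epcam+ 2, GFP+ 1 and GFP+ 2) were above the pit percentile for Clps alone, and 0 cells in any of the 4 libraries were above it for Pla2g1b alone. Neck-like cells showed the reverse. Of them, 49.0%, 54.0%, 40.5% and 38.2% were above it for Pla2g1b alone, 35.7% to 57.4% for both, and at most 1.47% for Clps alone. Parietal-like cells were above it for Pla2g1b alone in 52.2% and 67.9% of cells and for Clps alone in 0. Neck-like medians of Pla2g1b were 4.25 to 6 times the pit medians, and parietal-like medians 2.71 to 2.96 times.

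**Figure D2:**
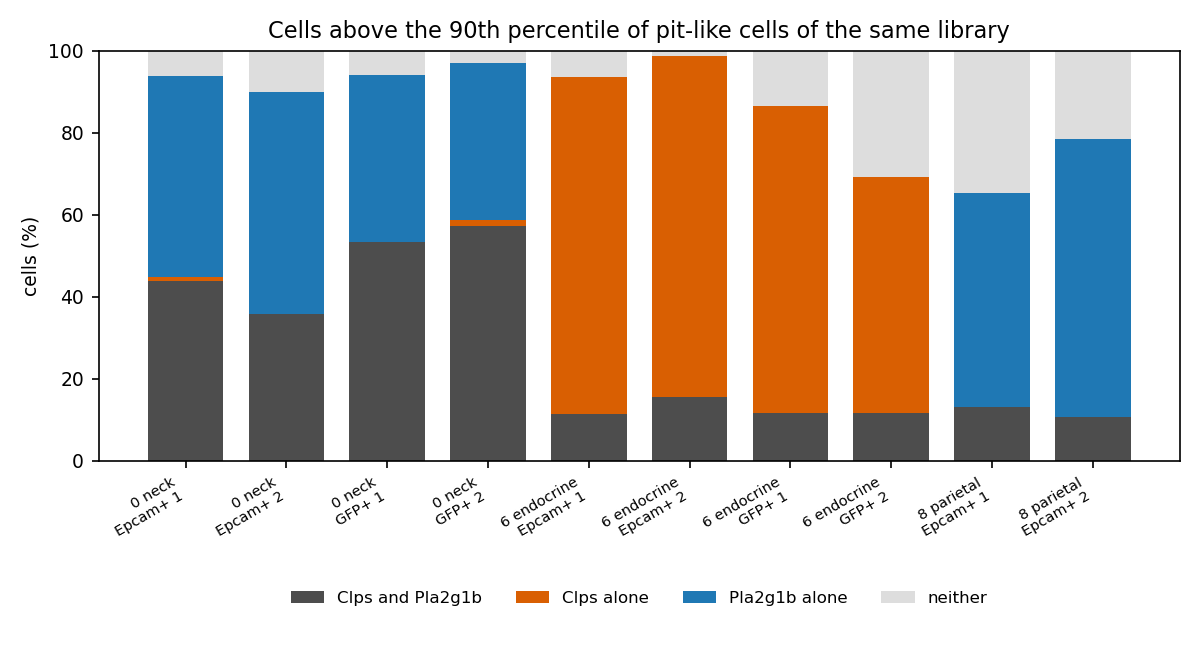
Share of neck-like, endocrine-like (cluster 6) and parietal-like cells (%, stacked to 100) above the 90th percentile of pit-like cells of the same library for Clps and Pla2g1b, for 1 of them, or for neither, 1 bar per library. Clps alone takes 57.7% to 83.3% of cluster 6 cells, and Pla2g1b alone 38.2% to 54.0% of neck-like cells.

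RNA from 1 source keeps its genes in 1 proportion wherever it lands, so Pla2g1b was also read per 1000 Clps UMIs. Cluster 1 held 716 ± 13.3 (699 to 729, n = 4). Cluster 6 held 91.8 ± 11.3 (78.7 to 105), below the cluster 1 value of the same library in 4 of 4 libraries. If every Pla2g1b UMI of cluster 6 had come with chief RNA at the proportion of cluster 1, that RNA would have brought 11.1% to 15.1% of the Clps found there. It would have brought 0.0104% to 0.0177% of the Pnliprp1. Endocrine-like cluster 7 did not share this low proportion. It held 601 ± 153 (429 to 723, n = 3), above cluster 1 in 1 library and below it in 2. Neck-like cells held 970 ± 159, above cluster 1 in 4 of 4 libraries, and parietal-like cells 2788 and 3042 in the Epcam+ libraries. Pit-like cells held 834 ± 168, above cluster 1 in 3 libraries and below it in 1. Isthmus-like clusters 3 and 4 held 925 and 1081 (n = 2 each), above cluster 1 in 2 of 2 libraries. Their Pla2g1b medians were 1.375 to 1.76 times the pit medians, and 33.7% to 42.1% of their cells exceeded the pit percentile. The source of the additional Pla2g1b in parietal-like, neck-like and isthmus-like cells was not tested.

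**Figure D3:**
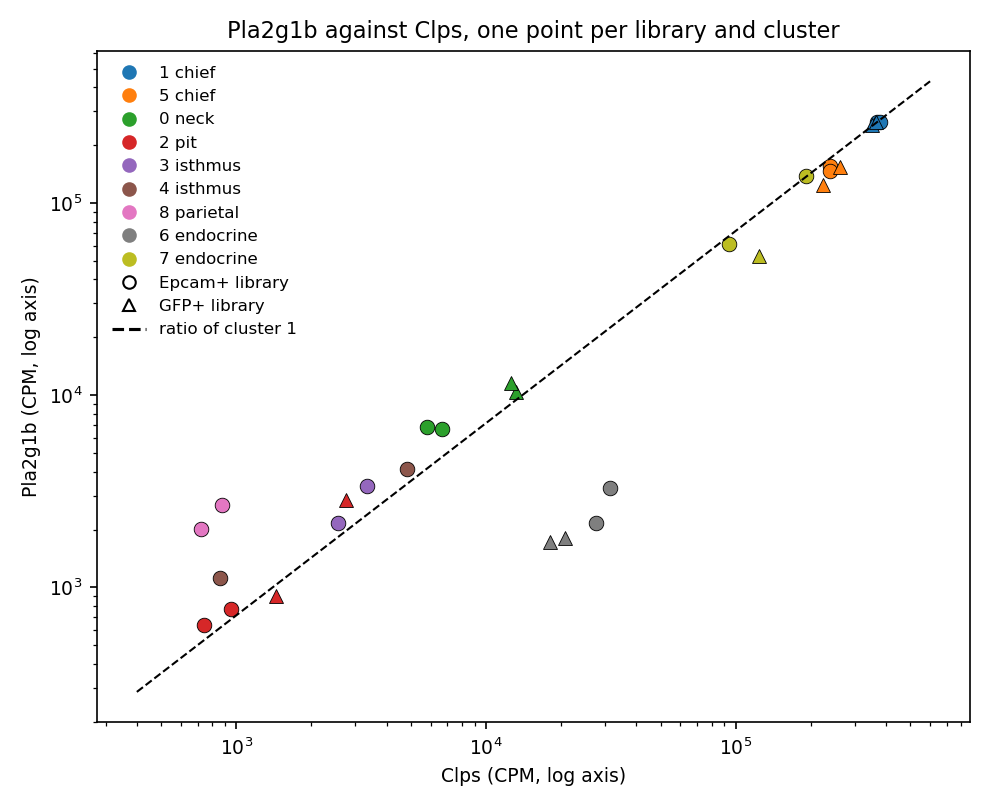
Pla2g1b against Clps (CPM, both axes logarithmic), 1 point per library and cluster; circles are Epcam+ and triangles GFP+ libraries, and the dashed line is the proportion in cluster 1. The 4 points of cluster 6 lie well below the line (91.8 Pla2g1b UMIs per 1000 of Clps against 716 in cluster 1), and the 2 parietal-like points lie above it.

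Cel and Pnliprp1 were rare enough for detection to be informative. After each cell was thinned to 16880 UMIs, leaving out 445 shallower cells (171, 192, 49 and 33 per library), Cel was detected in 135 of 139 cluster 6 cells (97.1%, 95% Wilson interval 92.8 to 98.9). In cluster 1 it was detected in 4 of 880 cells (0.455%, 0.177 to 1.16), no more often than in pit-like cells (0.581%) or neck-like cells (0.617%), which is the level of background. In cluster 4 it was found in 0 of 372 cells, which allows a share of up to 0.806%. Intervals cover counting error only. Without thinning the Cel shares were 95.5% in cluster 6, 2.23% in cluster 1 and 1.02% in pit-like cells, whose median depths were 19705, 125624 and 37728 UMIs.

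Pnliprp1, by the same count, was detected in all 139 cluster 6 cells and in 518 of 880 cluster 1 cells (58.9%, 95% Wilson interval 55.6 to 62.1). In cluster 5 the share was 47.1%, whereas it was 5.25% in neck-like, 2.21% in pit-like and 3.64% in cluster 3 cells, and 0 of 50 parietal-like cells had a UMI, which at this depth allows a share of cells with a UMI of up to 6%. Without thinning, Pnliprp1 was seen in 92.6% of cluster 1 cells, in 4.75% of pit-like cells and in 2 of 51 parietal-like cells (3.92%). Its share in chief-like cells thus lay far above that in types taken as background. Per 1000 Clps UMIs cluster 1 held only 0.229 ± 0.038 of Pnliprp1, against 247 ± 65.5 in cluster 6.

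Within cluster 1, the share of a cell's UMIs that Clps and Pla2g1b took varied less than that of Pnliprp1. Thinned to 49232 UMIs, the coefficient of variation was 8.43% to 11.4% for Clps and 10.3% to 15.8% for Pla2g1b over the 4 libraries, and on the UMIs of whole cells it was 37.7% and 40.2% on average. These 2 genes make up most of the fixed total. For Pnliprp1 the thinned value was 108% to 182%, where counting error alone would give 45.3% to 52.9%, with medians of 2 to 3 UMIs and 80.2% to 86.2% of cells positive. At a fixed total, 1 abundant gene rises only as others fall, so no correlation between Clps and Pla2g1b was read.

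Within cluster 6, thinned to 10000 UMIs, Cel rose with Pnliprp1 from cell to cell (Pearson r 0.49 to 0.83 over the 4 libraries, given as a description over cells that share library and depth). Clps ran with Pnliprp1 at r 0.44 to 0.53 and with Cel at 0.22 to 0.49. Pla2g1b ran with Pnliprp1 at -0.35 to 0.04. Of the PTF1 subunits, Rbpjl ran with Cel at 0.39 to 0.47, and Ptf1a at -0.14 to 0.26, a range that spans 0.

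The endocrine-like cells were then ordered by the hormone or amine gene with most UMIs. Cluster 6 comprised 166 cells led by Ghrl, 51 led by Hdc and 7 led by the somatostatin gene Sst, and 220 of its 224 cells had at least 1 Hdc UMI. Over all libraries Hdc was at 2958 CPM in the Ghrl-led and 2781 in the Hdc-led cells, and Ghrl at 64755 and 894. By library (Epcam+ 1, Epcam+ 2, GFP+ 1, GFP+ 2), Hdc was 3426, 2784, 2792 and 3017 CPM in Ghrl-led cells. It was 3456, 1883, 3006 and 1696 CPM in Hdc-led cells, and so lower there in Epcam+ 2 and GFP+ 2. The 2 groups thus differed mainly in Ghrl, and they do not separate cells with Hdc from cells without it. Cel was at 1518 CPM in the Ghrl-led cells and 2173 in the Hdc-led cells over all libraries, and Pnliprp1 at 5734 and 6624. By library, Cel in Ghrl-led cells was 1315, 1829, 1378 and 1463 CPM and in Hdc-led cells 2392, 1695, 2121 and 2822 (Epcam+ 1, Epcam+ 2, GFP+ 1, GFP+ 2), higher in the Hdc-led cells of 3 of 4 libraries. Clps was at 25791 CPM in Ghrl-led and 21931 in Hdc-led cells, so all 3 genes were present in both. The Hdc-led cells of the GFP+ libraries numbered only 9 and 4.

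Cluster 7 was mixed. Its 32 cells led by Sst, 33 led by Ghrl and 7 led by the gastrin gene Gast were joined by 3 led by Tph1, an enzyme of serotonin synthesis, 3 led by Hdc and 10 with none of these genes. After the values were seen, the cluster was divided by Hdc. The 24 cells with an Hdc UMI held 414 of its Cel UMIs and 2176 of its Pnliprp1 UMIs, and 9 of them were called doublets. The 64 cells without Hdc held 1 Cel UMI and 16 Pnliprp1 UMIs, with a median of 26.5 Clps UMIs, and 0 doublet calls. Without the doublets, 15 cells with Hdc held 126 Cel and 749 Pnliprp1 UMIs, all of them in 5 cells of Epcam+ 1 (38 and 374) and 7 cells of GFP+ 1 (88 and 375), while the 2 such cells of Epcam+ 2 and the 1 of GFP+ 2 held 0 of either. The median total was 29717.5 UMIs in the 24 cells with Hdc and 13319.5 in those without, and the part of depth in this division was not tested. In 10 of the 24 cells Clps was at 1000 UMIs or more, so the high Clps level of cluster 7 came from few cells. Leaving out the called doublets lowered Clps from 212377 to 97816 UMIs in Ghrl-led cells. It fell from 50779 to 1260 in Sst-led and from 29851 to 46 in Hdc-led cells of this cluster. In Ghrl-led cells of Epcam+ 2 it fell from 61211 to 353 UMIs. Pla2g1b fell from 142676 to 59590 UMIs in Ghrl-led and from 34982 to 914 in Sst-led cells. The part of doublets was not tested beyond these values. The 7 Gast-led cells held 0 Cel and 0 Pnliprp1 UMIs.

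**Figure D4:**
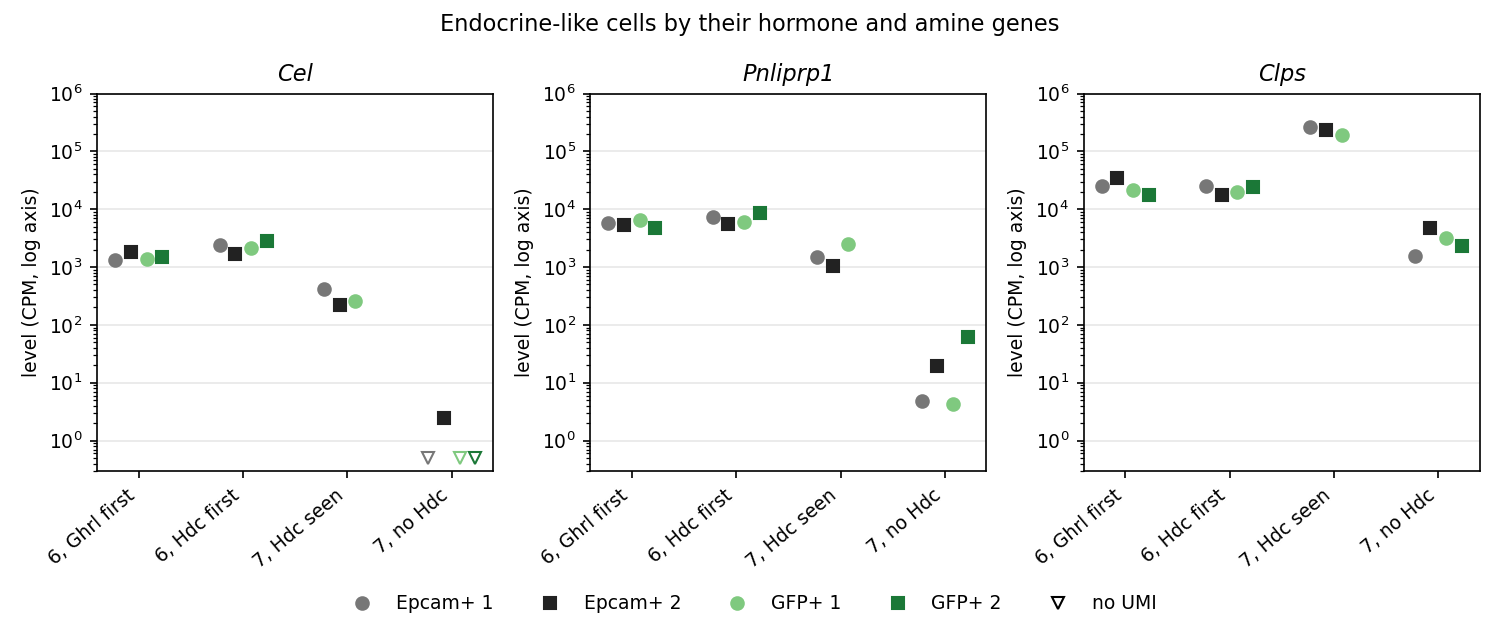
Cel, Pnliprp1 and Clps (CPM, log axis) in cluster 6 cells led by Ghrl or by Hdc, and in cluster 7 cells with and without a UMI of Hdc, 1 point per library; open triangles stand for no UMI and groups without a point for a library are not drawn for it. Cel is near 1518 and 2173 CPM in the cluster 6 groups and absent in 3 of 4 libraries from cluster 7 cells without Hdc.

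Outside clusters 6 and 7, Cel amounted to 269 UMIs in 51 of 4137 cells (1.23%). Only 5 cells had 5 or more Cel UMIs, and they held 219 of the 269. All 5 carried endocrine RNA as well, with 163 to 571 UMIs of chromogranin A (Chga), and 2 of them were called doublets. The rest came to 50 UMIs, or 0.219 CPM. Among the 5 were 2 cells of cluster 1, with 26 Cel UMIs beside 571 of Chga and 75558 of Clps in GFP+ 1, and with 54 beside 470 and 56791 in GFP+ 2. Neither was called a doublet, and both also held Ghrl (673 and 667 UMIs) and Ptf1a (14 and 7 UMIs).

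The genes whose level ran closest to each member were found over 29 library and cluster sums by Pearson correlation of log2(CPM + 1), among 4605 genes reaching 50 CPM in some cluster. For Clps they were Gm12888 (r = 0.95), the protease Furin (0.94), Fxyd6 (0.94), Tmed6 (0.94) and the stress-response gene Nupr1 (0.93), and for Pla2g1b they were the trypsinogen gene Try4 (0.96), Gm35572 (0.96), Tmed6 (0.95), Gper1 (0.95) and Furin (0.95). For Cel they were vitronectin (Vtn, 0.99), Slc18a2 (0.99), the vitamin D-binding protein gene Gc (0.99), Chga (0.99) and Lhfpl5 (0.99). For Pnliprp1 they were Pamr1 (0.97), Erich5 (0.96), Ramp1 (0.95), Syt7 (0.94) and Dnajc12 (0.94). Furin and Tmed6, on the chief marker list, appeared for both members of the chief-like pair, and no gene appeared for both Cel and Pnliprp1. Sums of 1 library share depth and free RNA, so these values are descriptive. Between members, r was 0.92 for Clps and Pla2g1b and 0.88 for Cel and Pnliprp1, against 0.20 for Clps and Cel.

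Of 13 measured transcription factors of acinar and zymogenic cells, 10 reached 50 CPM in some cluster and 3 of these were highest in cluster 6. They were Ptf1a (677 ± 141 CPM), its partner Rbpjl (336 ± 18.4) and the homeobox gene Prox1 (210 ± 18.3, n = 4 each), at 0.303, 0.276 and 0.061 CPM in cluster 1. Across the 29 sums Ptf1a and Rbpjl each ran with Cel at r = 0.99 and with Pnliprp1 at r = 0.88, and with Clps at 0.22 and 0.20. Xbp1, a factor of secretory cells, was at 225 ± 4.75 CPM in cluster 1 and 471 ± 33.3 in cluster 6. Bhlha15, known for its role in zymogen storage, did not reach 50 CPM (24.3 ± 3.92 in cluster 1, 6.48 ± 1.83 in cluster 6).

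The other pancreatic acinar genes were present only in part. Of 31 genes on that list, 21 were measured, 10 to 12 of these were detected in cluster 6 of a library, and they summed to 1097 to 1493 CPM there, against 678 to 942 CPM in cluster 1. The list includes Ptf1a and Rbpjl, which stood at 677 ± 141 and 336 ± 18.4 CPM in cluster 6. It also includes Pnliprp2, at 790 ± 110 CPM in cluster 1, so these sums do not order the secreted enzymes. In cluster 5 the list summed to 1130, 1458, 1881 and 1322 CPM (Epcam+ 1, Epcam+ 2, GFP+ 1 and GFP+ 2). Of the 6 genes of the list that reached 50 CPM in some cluster, 3 were highest in cluster 6, Pnliprp2 and the elastase gene Cela1 in cluster 5 and the kallikrein gene Klk1 in neck-like cells (122 ± 21.3 CPM). Cela1 was at 175 ± 83.4 CPM in cluster 5, 0.902 in cluster 1 and 45.2 in cluster 6. Beside Ptf1a and Rbpjl, the largest share of the cluster 6 sum was Reg1, a secreted lectin (185 ± 60.4 CPM in cluster 6, 0.125 in cluster 1). The chymotrypsinogen gene Ctrb1 was at 35.8 ± 20.9 CPM, the elastase genes Cela2a and Cela3b at 11.6 ± 4.44 and 12.5 ± 9.68, and pancreatic amylase Amy2a5 at 5.0 ± 6.07. Pancreatic lipase itself, Pnlip, the enzyme that colipase serves, was at 1.90 ± 1.06 CPM in cluster 6 and 0.248 ± 0.108 in cluster 1.

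Of 28 measured other lipases and phospholipases, 8 reached 50 CPM, and 0 of the 8 were highest in cluster 6. The one nearest to the chief-like pair was Pnliprp2, at 1191 ± 244 CPM in cluster 5 and 790 ± 110 in cluster 1 against 26.0 ± 11.2 in cluster 6. It and its neighbour Pnliprp1 thus had opposite orders in the chief-like and endocrine-like clusters. The others lay elsewhere in the gland: Plaat3 (206 ± 28 CPM) and the phosphatidic acid-selective lipase Liph (171 ± 14.0) in neck-like cells, the secreted phospholipase Pla2g10 (180 ± 12.8) in pit-like cells, and cytosolic Pla2g4a (87.2, n = 2) in cluster 4. Pla2g12a (163), the fat droplet lipase Pnpla2 (120) and lipoprotein lipase Lpl (100, n = 2 each) were highest in parietal-like cells.

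All 16 genes of fat uptake and chylomicron assembly were measured and 4 reached 50 CPM, of which 0 were highest in a chief-like or endocrine-like cluster. Fatty acid-binding protein Fabp5 was at 1053 ± 49.0 CPM and the acyl-CoA synthetase Acsl5 at 75.7 ± 3.72 in cluster 4 (n = 2). Apolipoprotein Apoa1 was at 362 ± 252 CPM and Dgat2, which makes triglyceride, at 62.5 ± 3.07 in parietal-like cells (n = 2). Among 13 other chief cell secretory genes, Pgc reached 195220 ± 18306 CPM in cluster 1, below both Clps and Pla2g1b there, and Chia1 15562 ± 3383. Pgc also stood at 153243 ± 33417 CPM in neck-like cells, where Clps was at 9588 and Pla2g1b at 8892 CPM.

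Whether cells that retained GFP differed from the Epcam+ cells of their own cluster was tested on UMIs summed per library, 2 GFP+ against 2 Epcam+ libraries, with edgeR's quasi-likelihood test and Benjamini-Hochberg adjustment over all genes tested in the cluster. Of 20 possible pairs of a member and a cluster, 17 had enough counts and 4 passed an adjusted p of 0.05. They were Clps and Pla2g1b in neck-like cells, Clps in cluster 6 and Cel in cluster 1. For values below, CPM include TMM factors, which correct library totals for composition.

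In chief-like cluster 1, Clps, Pla2g1b and Pnliprp1 did not pass, beside 0.0887% of 10146 genes called in that cluster (0.0394% as higher and 0.0493% as lower). TMM-scaled Clps was 371020 and 361050 CPM for Epcam+ cells and 358320 and 373120 CPM for GFP+ cells, so the sorts overlapped. The log2 difference was -0.0012 (SE 0.11, adjusted p = 0.998, edgeR) for Clps and 0.040 (SE 0.11, adjusted p = 0.956) for Pla2g1b. Pnliprp1 was 77.8 and 70.3 CPM in Epcam+ and 101 and 85.5 CPM in GFP+ libraries, which did not overlap, with a log2 difference of 0.33 (SE 0.11, adjusted p = 0.466). Without the Chga-bearing cells described above, a setting added after the values were seen, the difference was 0.21 (SE 0.09, adjusted p = 0.646, edgeR). In cluster 5 none of the 3 members tested passed (log2 differences 0.14 for Clps, 0.0079 for Pla2g1b and 0.28 for Pnliprp1, edgeR), where 0.309% of all genes were called (0.0441% as higher and 0.264% as lower) and 763 of 9074 had an unadjusted p under 0.05. Of the other fat digestion, fat uptake, chief secretory and transcription factor lists, 12, 7, 8 and 10 genes were tested in cluster 1, and 0 passed in either direction, while 809 of 10146 genes had an unadjusted p under 0.05.

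Cel in cluster 1 did pass, at a log2 difference of 3.71 (SE 0.42, adjusted p = 0.0239, edgeR), but it rested on few molecules. The libraries held 2 and 4 Cel UMIs (Epcam+) and 31 and 61 (GFP+), and 26 and 54 of the latter lay in the 2 Chga-bearing cells described above. Without those cells the counts were 2, 4, 5 and 7 UMIs, or 0.0874, 0.138, 0.232 and 0.179 CPM, and Cel fell below the count filter. This setting was added after the values were seen.

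Neck-like cells of the GFP+ libraries held more Clps and Pla2g1b. Clps was 5702 and 6258 CPM for Epcam+ cells but 14067 and 12946 CPM for GFP+ cells, without overlap of the sorts, and rose by 1.18 on the log2 scale (SE 0.09, adjusted p = 0.00605, edgeR). The median neck-like cell held 37 and 35 Clps UMIs in the Epcam+ and 145.5 and 173.5 in the GFP+ libraries. These medians were only 1.15 to 2.02 times the pit medians, so the summed Clps level lay above the typical neck-like cell. Pla2g1b was 6666 and 6255 CPM in Epcam+ and 11096 and 11950 in GFP+ libraries, also without overlap, and rose by 0.83 (SE 0.08, adjusted p = 0.0142). In the same cluster 0.159% of 11287 genes were called, 0.0886% as higher and 0.0709% as lower in GFP+. Pnliprp1 was 3.37 and 2.81 against 7.62 and 5.61 CPM, a log2 difference of 1.14 (SE 0.32, adjusted p = 0.286). The Pla2g1b call was lost without either Epcam+ library (adjusted p = 0.0561 and 0.166) and without TMM factors (0.0799).

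Several values moved with the neck-like result. The chief marker list summed to 136016 and 118565 CPM in neck-like cells of Epcam+ libraries and to 193829 and 171019 in those of GFP+ libraries, with a median log2 difference of 0.59 over its 8 genes, against 0.0086 over all genes, and 1 of the 8 rose (Cblif, 1.11, adjusted p = 0.0135, edgeR). The pit marker list ran the other way, with sums of 642 and 651 CPM for Epcam+ cells and 328 and 190 CPM for GFP+ cells and a median log2 difference of -1.50 over 6 tested genes, of which Gkn1 fell (-1.65, adjusted p = 0.0335, edgeR), as did Ctse of the chief secretory list (-0.85, adjusted p = 0.0492). Chief-like cells made up 17.4% and 20.3% of the Epcam+ and 44.3% and 66.9% of the GFP+ libraries. Pit-like medians of Clps were 26 and 30.5 UMIs in the Epcam+ and 77.5 and 86 in the GFP+ libraries. The part of free RNA and of depth in the neck-like difference was not tested. In pit-like cells themselves Clps differed by 1.42 (SE 0.26, adjusted p = 0.0732, edgeR), where 0.364% of all genes were called (0.209% as higher and 0.155% as lower). It passed with DESeq2 (adjusted p = 3.9e-05), without a count filter (adjusted p = 1.32e-10) and with any 1 library left out (0.92 to 1.79, adjusted p = 0.0365 at most, edgeR), but not with other totals, without doublets or without the Chga-bearing cells. Pla2g1b differed by 1.53 (SE 0.42, adjusted p = 0.156, edgeR), by 0.52 without GFP+ 1 (adjusted p = 0.132) and by 2.11 without GFP+ 2 (adjusted p = 0.000384). It also passed without Epcam+ 1, without Epcam+ 2 and without a count filter. The Clps difference in pit-like cells exceeded that in cluster 1 by 1.43 (SE 0.27, adjusted p = 0.0365 for the difference itself, 0.182% of 12620 genes called), whereas the one in neck-like cells exceeded it by 1.19 (adjusted p = 0.819) with 0 of 12620 genes called.

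In cluster 6, Clps was 28071 CPM in Epcam+ 1 and 31054 CPM in Epcam+ 2, and lower in GFP+ 1 (20992) and GFP+ 2 (17529), without overlap of the sorts. It fell by 0.62 on the log2 scale (SE 0.11, adjusted p = 0.0438, edgeR), beside 0.221% of 9960 genes called, 0.0602% as higher and 0.161% as lower. The call was lost under 3 of the other scalings and filters (adjusted p = 0.0891 without TMM factors, 0.0632 with totals that leave out the 3 most abundant genes and 0.0661 without doublets) and without GFP+ 2 (0.0698). Pla2g1b differed by -0.64 (SE 0.15, adjusted p = 0.160), Cel by -0.17 (SE 0.10, adjusted p = 0.819) and Pnliprp1 by 0.017 (SE 0.14, adjusted p = 0.989). The test of the Clps difference in cluster 6 against that in cluster 1 did not pass (-0.62, SE 0.27, adjusted p = 0.978, beside 0.0317% of 12620 genes called).

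Other genes of cluster 6 differed between the sorts beside that result. The neck gene Tff2 (-2.90), the pit genes Gkn2 (-2.38), Psca (-1.60) and Tff1 (-3.63) and the aspartic protease Ctse (-3.01) fell in GFP+ libraries, and Gast (8.06) and the granin Pcsk1n (1.89) rose (log2 scale). The fall of pit genes was not particular to cluster 6. The median log2 difference of the pit list was -2.35 there and -1.50, -1.26 and -1.44 in clusters 0, 1 and 5. In pit-like cells it was 0.72. In cluster 6 summed chief markers were 6416 and 5264 CPM in the Epcam+ and 2611 and 1098 in the GFP+ libraries. Pgc, on that list, averaged 3171 ± 2105 CPM in this cluster, and 1512 without the top cell of each library. In Hdc-led cells of Epcam+ 2, Pgc fell from 2242 to 157 UMIs without 1 called doublet. Within Ghrl-led cells alone Clps was 25245 and 34807 CPM (Epcam+) against 21115 and 17424 (GFP+), while within Hdc-led cells it was 25147 and 17871 against 19898 and 24041, which overlapped. The part of these shifts in the Clps difference was not tested.

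**Figure D5:**
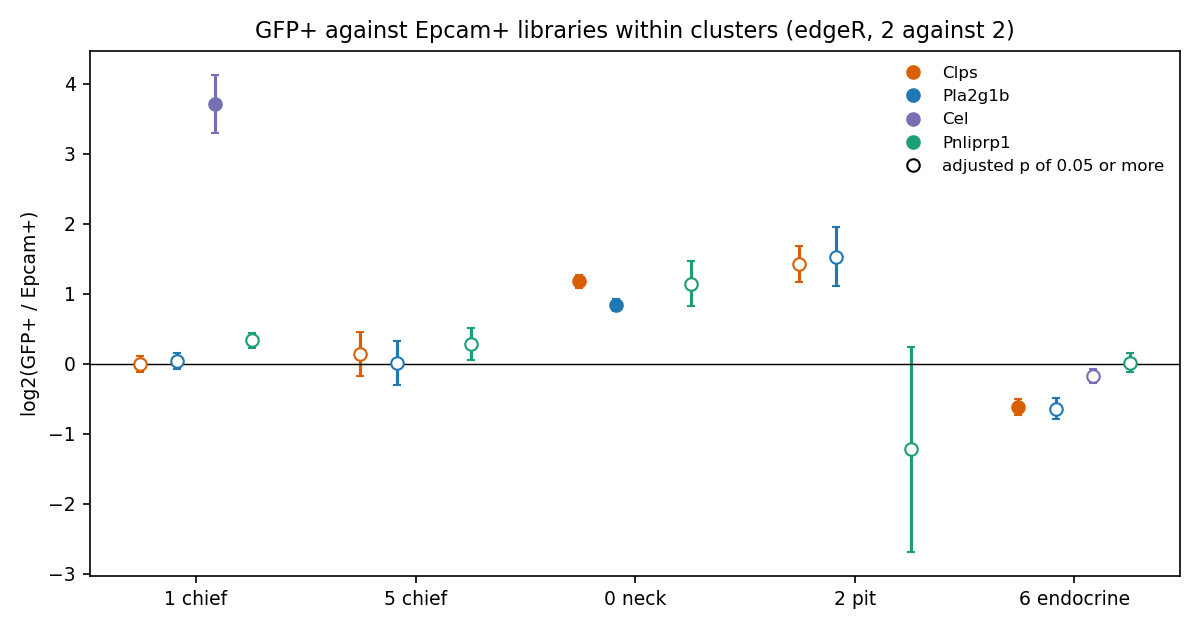
Log2 difference of GFP+ from Epcam+ libraries for each gene and cluster with enough counts (edgeR, 2 against 2 libraries; bars are 1 standard error; filled points passed an adjusted p of 0.05). Clps and Pla2g1b lie near 0 in cluster 1, are raised by 1.18 and 0.83 in neck-like cells, and Clps is lowered by 0.62 in cluster 6; the Cel point in cluster 1 rests on 2 cells.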

How the data were processed

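The authors made the deposited counts (whole UMIs per gene and cell) with Cell Ranger 3.0.2 on mm10 and, per their methods, left out cells with over 15% mitochondrial counts, under 1500 or over 8000 genes, or Ptprc or Pecam1 counts. Cluster numbers and libraries came from their deposited cell metadata, which covers 4449 cells. The 4 genes and all gene lists were chosen with earlier results of these data known. UMIs were summed per library and cluster. Pairs of at least 20 cells were used.

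Genes named were the 4 members, for each of them the 5 genes of highest correlation, and the members of 4 lists at 50 CPM or more in any cluster, at most 8 a list. Clusters 0, 1, 2, 5 and 6 were tested with edgeR 4.0.16 (R 4.3.3, TMM, filterByExpr, glmQLFTest). Tests of a difference between clusters fitted all 5 together. Tested on simulated data, the fit recovered 80% of genes changed by 1 on the log2 scale in cluster 1 and 72% in cluster 6. The simulation gave every gene the same spread and changed only well-counted genes other than Clps, Pla2g1b and Pgc. These shares therefore do not carry over to Clps, to Pla2g1b or to genes of few counts. DESeq2 1.42.0, other scalings, no filter, a replicate block and each library left out were alternatives. Scrublet (scanpy 1.11.5), run on each library, marked 74 cells (1.66%) as doublets, and they were kept. The libraries shared 4 cell barcodes. Same-numbered libraries form only 2 pairs, and the labels do not say that a number marks mice or days in common, so no pairing was assumed. Depth per library is given with the results. Lipf, Nr5a2 and Nts were not analysed here.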

Additional observations from a re-analysis of the deposited data

Results flagged for a closer look

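Dixon's test marked 3 of 20 groups of 4 libraries, and the test of a difference between clusters marked 1 of 16. The chance rate of Dixon's test, about 1 in 20, is for draws from 1 normal population. Each group here joined both sorts and some held few UMIs, so that rate need not apply.

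In pit-like cells Pla2g1b was 2855 CPM in GFP+ 1 and 641 to 905 CPM in the other 3 libraries, and 1 cell of GFP+ 1 held 5482 of the 8229 UMIs. In neck-like cells Cel was 0 CPM in GFP+ 2 against 0.266 to 0.281 CPM in the others, which is 0 UMIs against 1 to 3. In pit-like cells Cel was 4.49 CPM in Epcam+ 1 and 0.124 to 0.694 CPM elsewhere, and 63 of its 65 UMIs lay in 2 cells that also held 163 and 203 UMIs of Chga. The difference of GFP+ from Epcam+ libraries in Clps was larger in pit-like cells than in cluster 1 by 1.43 on the log2 scale (adjusted p = 0.0365, edgeR), and stayed so without TMM factors (1.35, adjusted p = 0.0296) and without doublets (1.45, adjusted p = 0.0241). In GFP+ 1, 1 pit-like cell held 4079 of 7933 Clps UMIs, and without it the level there was 1388 CPM, beside 1440 in GFP+ 2 and 745 and 953 in the Epcam+ libraries.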

How the results depend on the processing

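The 95 results were tests, numbers of genes called, levels, proportions, shares and variation, and only the tests have a threshold. An alternative counted as unchanged if a test kept its direction and side of the threshold. Other values had to stay within a set range, such as their SD over libraries. For results taken as main ones, 146 alternatives were unchanged, 59 moved and 8 weakened. For the rest, 307 were unchanged, 34 moved, 16 reversed and 17 became stronger. The Clps rise in neck-like cells passed under all alternatives run (1.05 to 1.24 on the log2 scale). That of Pla2g1b did not pass without TMM factors (0.71) and ranged from 0.78 to 0.88 over the libraries left out. The Clps fall in cluster 6 did not pass without TMM factors (-0.61), with totals that leave out Clps, Pla2g1b and Pgc (-0.63) or without doublets (-0.63), and ranged from -0.75 to -0.49 over the libraries left out. Differences near 0 changed sign: Clps in cluster 1 (0.0024 without the Chga-bearing cells, -0.034 to 0.024 over the libraries left out) and in cluster 5 (-0.11 to 0.38), Pla2g1b in cluster 1 (-0.023 without TMM factors, -0.00050 to 0.074) and cluster 5 (-0.11 without TMM factors, -0.0046 without a filter, -0.29 to 0.28, and 0.16 against cluster 1 without doublets), and Pnliprp1 in clusters 5 (-0.045 to 0.71) and 6 (-0.20 to 0.20). Pnliprp1 in pit-like cells, at -1.22 (SE 1.46), was not near 0 but poorly fixed, and was 1.30 without Epcam+ 1 and -3.31 without GFP+ 1.

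Genes called in clusters 0, 1, 2, 5 and 6 (18, 9, 40, 28 and 22) became 44, 20 and 143 in clusters 0, 1 and 2 with DESeq2; 14, 24, 44 and 38 in 1, 2, 5 and 6 without TMM factors; 21 and 35 in 2 and 6 with totals that leave out the 3 genes; 236, 639, 178 and 140 in 1, 2, 5 and 6 without a filter; 0 and 3 in 5 and 6 without doublets, edgeR; and 18 in 5 without the Chga-bearing cells. Leaving out 1 library gave 7 to 275, 13 to 78, 114 to 156, 11 to 226 and 14 to 110; a group then has 1 library, assumed to vary like the others. The 4 calls of members became 2 without TMM factors, 7 without a filter, 3 without the Chga-bearing cells (Cel in cluster 1 was then not tested) and 5 to 6 over the libraries left out.

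With the replicate number as a block, 651, 414, 222 and 96 genes were called in clusters 0, 1, 2 and 6, and 7 calls of members. Clps in cluster 6 did not pass (-0.62, adjusted p = 0.0705, edgeR), Pla2g1b in cluster 5 changed sign (-0.020), and Pnliprp1 in clusters 1 (adjusted p = 0.00255) and 0 (0.0484), Pla2g1b in cluster 6 (0.0265) and Clps in cluster 2 (0.0381) passed. Deviations of same-numbered libraries correlated at -0.0367 to 0.233 across genes, and the numbers were not taken as pairs.

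With totals that leave out Clps, Pla2g1b and Pgc, cluster 1 levels were 2066880 for Clps, 1478980 for Pla2g1b, 4.57 for Cel and 472 for Pnliprp1 CPM. As a mean over cells, Pla2g1b in cluster 1 was 255890 CPM and Cel in cluster 6 1798. As a multiple of that of a source in cluster 5, the Pla2g1b to Clps proportion was 1.60 in neck-like cells and 0.153 in cluster 6, and without the top cells 0.0972 of cluster 1 in cluster 6. Shares in cluster 1 depended on depth and the minimum count: 2.23% for Cel without thinning and 0.114% at 2 UMIs, and 92.6%, 43.9% and 34.1% for Pnliprp1 without thinning, at 10000 UMIs and at 2 UMIs. Without thinning, the coefficient of variation was 37.7% for Clps and 40.2% for Pla2g1b. Cel was 1909 CPM in Hdc-led cluster 6 cells of 100 or more Hdc UMIs, 162 and 179 CPM in Ghrl-led cluster 7 cells without doublets and at 100 UMIs, and 226 CPM in cluster 7 cells with Hdc without doublets. Causes were not tested.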
